A study of Mus musculus with 2 samples.

Results

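The MHC class II genes measured here were 7 of the 32285 genes in single-cell RNA-seq of mouse fracture callus, the repair tissue that bridges a broken bone. They were chosen by symbol: the classical chain genes H2-Aa, H2-Ab1 and H2-Eb1, the invariant chain gene Cd74, the peptide-editing genes H2-DMa and H2-DMb1, and the transactivator gene Ciita. All 7 were found in both libraries. The tissue was femoral fracture callus from wild-type C57BL/6J male mice, 12 weeks old, with no engineered allele and no drug, and every cell therefore came from a fractured, otherwise untreated animal. Calluses of 5 mice at 10 days and of 5 mice at 20 days after fracture entered the study, but the labels of the 2 libraries, MGJ and MGJ2, were otherwise identical and gave neither a day. Each library is therefore 1 sample without a group, the values of both are given side by side, and no test between them or between days was possible. Whether the calluses of several mice were pooled in a library is not given in the sources used here.

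Class II molecules display peptides from engulfed protein to helper T cells. An alpha and a beta chain (such as H2-Aa with H2-Ab1) assemble in the endoplasmic reticulum on the invariant chain Cd74, which blocks the groove until H2-DM exchanges its last fragment for peptide. CIITA, the product of Ciita, switches on the whole set in dendritic cells, B cells and macrophages, and in many other cells after interferon gamma. Chondrocytes, the cartilage cells of the callus, are not classed as professional antigen-presenting cells.

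The classical chain genes and the H2-DM genes are neighbours in the MHC on chromosome 17 (GENCODE M21 on GRCm38): H2-DMa on the plus strand at chr17:34119541-34139101, H2-DMb1 on the plus strand at chr17:34153072-34160230, H2-Ab1 on the plus strand at chr17:34257689-34269419, H2-Aa on the minus strand at chr17:34282744-34287823 and H2-Eb1 on the plus strand at chr17:34305867-34316674. Their identifiers are ENSMUSG00000037649, ENSMUSG00000079547, ENSMUSG00000073421, ENSMUSG00000036594 and ENSMUSG00000060586 in that order, and all are protein-coding. Ciita (ENSMUSG00000022504) lies on the plus strand at chr16:10480059-10528418. H2-DMa overlaps Brd2 on the opposite strand and CR974462.3 on its own strand, and Ciita overlaps Dexi on the opposite strand. Whether counting used strand is not given in the sources used here, so reads of these pairs may not be separable. H2-DMb1 and its neighbour H2-DMb2 are close copies, and their split is uncertain.

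Promoters of class II genes share an X box and a Y box, which recruit the RFX and NF-Y factors and through them CIITA. The letters GNAAC followed after 15 to 35 bases by GATTGG were searched on both strands of the 300-base RefSeq windows (GRCm38.p6, 250 bases before to 50 after a gene's start). The letters were chosen with these sequences in view. The pair was in 3 of the 4 members with a window searched (H2-Aa, H2-Eb1 and H2-DMb1) and in neither window of H2-DMa. It was also in 3 of 4 further class II chain genes (H2-Oa, H2-Ob and H2-Eb2, not H2-DMb2), and in 396 of 32851 windows overall (1.21%). Windows of H2-Ab1, Cd74 and Ciita were not analysed here. The stretches of H2-Aa and H2-Eb1 are shown because these genes and H2-DMb1 carry the same pair and yet parted in cartilage cells below. Capitals mark the GNAAC and GATTGG letters, the minus strand is given at chr17:34287852-34287919 and the plus strand at chr17:34305761-34305827.
H2-Aa: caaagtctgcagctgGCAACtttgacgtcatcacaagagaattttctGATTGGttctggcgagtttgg
H2-Eb1: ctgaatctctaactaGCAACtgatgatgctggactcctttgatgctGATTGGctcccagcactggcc
GATTGG began 49 bases (H2-Aa) to 62 bases (H2-DMb1) before the RefSeq start. A match of letters is a description and not a measured binding site.

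The matrices held 14295 barcodes and 135304426 UMIs in MGJ and 8009 barcodes and 61130834 UMIs in MGJ2, where a UMI is 1 captured RNA molecule. Filters left 13268 and 7689 cells, against 5000 aimed at per library, and 19 barcodes occurred in both libraries. Cells were clustered without the class II genes and named "-like" from fixed markers. The chondrocyte-like class (2504 cells in MGJ, 132 in MGJ2) detected 12 or 13 of 13 cartilage markers in each of its clusters, and Col2a1 took 55330 and 45340 of every 1000000 UMIs. In MGJ, 3895 cells stayed unnamed, most of them in clusters of low UMI count. These low-count clusters (2250 and 1535 cells of MGJ) scored best for neutrophil markers but are not part of the neutrophil-like class of 1077 cells. Levels are given in CPM, the UMIs of a gene for every 1000000 UMIs of the class, with exact 95% Poisson intervals in brackets. These cover counting error only, since each library is 1 sample.

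Among classes of at least 50 cells, to which all places in an order refer, dendritic-cell-like cells held the highest class II level in both libraries, and B-cell-like and monocyte-like cells came next in both. The 7 members summed to 51670 CPM in 74 dendritic-cell-like cells of MGJ and to 50650 in 309 cells of MGJ2. B-cell-like cells followed at 16670 (16120 to 17230) and 20400 (20210 to 20590), and monocyte-like cells at 11500 and 12000. Macrophage-like cells of MGJ held 6694, and the 22 macrophage-like cells of MGJ2, too few for the order, held 15760 (15310 to 16220), above monocyte-like cells. Neighbours in this order whose intervals overlapped were T-cell-like and osteoclast-like, mural-cell-like and NK-cell-like, and neutrophil-like and myeloid-progenitor-like cells in MGJ. In MGJ2 they were pre-B-cell-like and NK-cell-like, myeloid-progenitor-like and neutrophil-like, and mast-cell-or-basophil-like and chondrocyte-like cells. Chondrocyte-like cells stood at place 13 of 16 in MGJ (262 CPM) and at place 13 of 13 in MGJ2 (232).

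Among the classical chain genes, H2-Aa reached 10150 CPM in dendritic-cell-like cells of MGJ and 10740 in MGJ2, H2-Ab1 10950 and 9865, and H2-Eb1 10350 and 8183. The chains were thus close to each other in these cells. In B-cell-like cells H2-Aa was 2735 and 3769, and in monocyte-like cells 2120 and 2368. Within the monocyte-like class of MGJ2, the cluster led by Cd300e, Ear2 and Lilra5 (128 cells) held 4455 CPM of the members, below the 12230 of the cluster led by E230029C05Rik and Cd83. The macrophage-like class of MGJ also parted into a cluster led by C1qa, C1qc and C1qb (906 cells, 8391 CPM of the members) and one led by Arg1, Mmp12 and Ptges (402 cells, 1776). Endothelial-cell-like cells held 125 CPM of H2-Aa in MGJ and 716 in the 50 cells of MGJ2, but only 6.86% and 16% of these cells had an H2-Aa UMI. In MGJ an H2-Aa UMI was likewise found in only 3.57% of T-cell-like and 5.30% of osteoblast-like cells. Erythroid-cell-like cells of MGJ showed a summed level of 2016, but only 5.33% of their 75 cells had a Cd74 UMI, so few cells carried it.

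**Figure D1:**
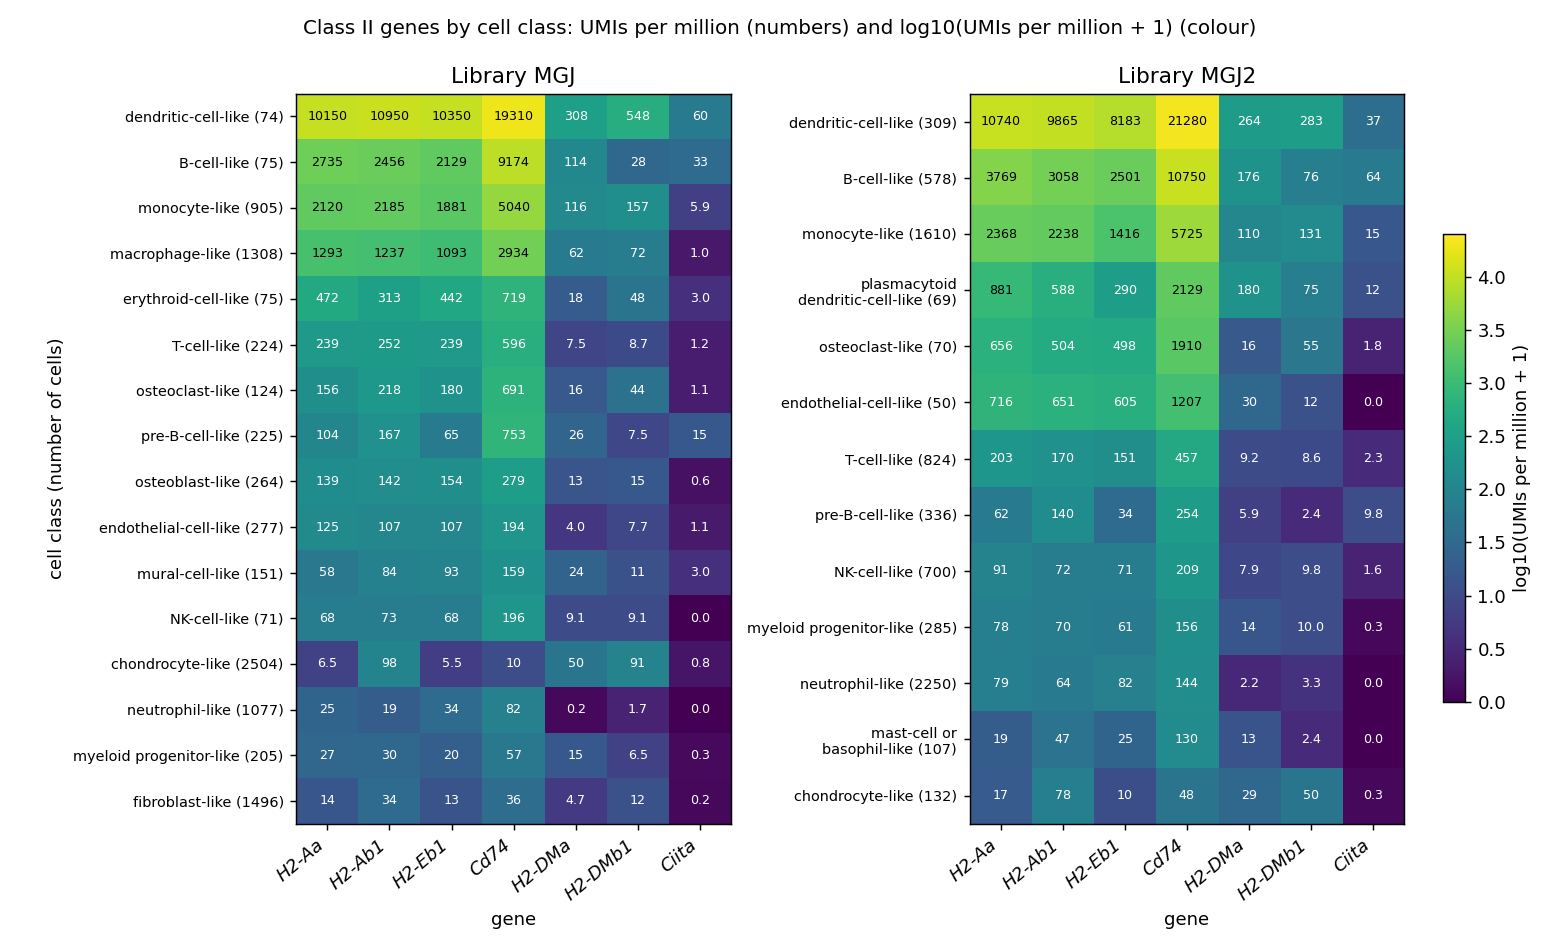
Levels of the 7 class II genes (columns) in each cell class of at least 50 cells (rows, ordered by the summed members, number of cells in brackets), as CPM in each box and as log10(CPM + 1) by colour, for libraries MGJ (left) and MGJ2 (right). Dendritic-cell-like cells are in the top row of both panels, and chondrocyte-like cells combine 6.5 and 17.2 of H2-Aa with 91.3 and 50.1 of H2-DMb1.

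Cd74 (ENSMUSG00000024610, chr18:60803848-60812652, plus strand) was the most abundant member in dendritic-cell-like cells (19310 and 21280 CPM), in B-cell-like cells (9174 and 10750) and in monocyte-like cells (5040 and 5725). In neutrophil-like cells it was 82.2 in MGJ and 144 in MGJ2. The H2-DM genes had another order. H2-DMb1 was highest in dendritic-cell-like cells (548 and 283), followed by monocyte-like cells (157 and 131). In MGJ chondrocyte-like cells came next with 91.3 (88.7 to 93.9), above macrophage-like cells with 71.8 (67.1 to 76.7). The 28 plasmacytoid-dendritic-cell-like cells of MGJ, under the limit of 50 cells, held 113 (67.9 to 176), an interval that holds the value of chondrocyte-like cells. In MGJ2 chondrocyte-like cells took place 6 of 13 with 50.1 (43.4 to 57.6), an interval that overlapped that of osteoclast-like cells at 54.9. H2-DMa was 308 and 264 in dendritic-cell-like cells, 116 and 110 in monocyte-like cells and 50.2 and 28.6 in chondrocyte-like cells. It was 0.248 and 2.17 in neutrophil-like cells.

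Ciita was a low-count gene throughout. It was 60.4 (41.4 to 85.3) CPM in dendritic-cell-like cells of MGJ and 37.4 (31.1 to 44.6) in MGJ2, and 33.1 and 64.3 in B-cell-like cells. Pre-B-cell-like cells held 15.1 and 9.84 although their Cd74 was only 753 and 254. Macrophage-like cells of MGJ held 0.976 (0.504 to 1.71) with Cd74 at 2934, while the 22 macrophage-like cells of MGJ2 held 20.6 (6 UMIs) with Cd74 at 7018. Over the 13 classes of MGJ2 the Pearson r of Ciita with the summed members was 0.81, on log2 of CPM plus 10. Chondrocyte-like cells held 0.774 (41 UMIs) in MGJ and 0.253 (1 UMI) in MGJ2.

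To compare shares of cells, each cell was thinned to 2000 UMIs. A member UMI was then seen in 31.1% of 2469 chondrocyte-like cells of MGJ (29.2 to 32.9, exact Clopper-Pearson interval) and in 27.5% of 131 cells of MGJ2 (20.0 to 36.0). Unthinned shares were 77.6% and 84.1%. Neutrophil-like cells, which normally hold little class II protein, are given as the reference, with median totals of 3237 and 2492 UMIs against 21000 and 29210 in chondrocyte-like cells. Thinning left out 316 and 576 neutrophil-like cells and 35 and 1 chondrocyte-like cells below 2000 UMIs. In neutrophil-like cells a member UMI was seen in 13.4% and 29.8% after thinning. Cd74 was seen in 1.66% of thinned chondrocyte-like cells against 7.62% of neutrophil-like cells in MGJ, and in 4.58% against 11.3% in MGJ2. H2-Eb1 (1.01% against 3.81%, and 2.29% against 9.50%) also had lower shares in chondrocyte-like cells. For H2-Aa the intervals overlapped in both libraries. Its share was 1.26% (0.855 to 1.78) against 2.497% (1.51 to 3.87) in MGJ. In MGJ2 it was 4.58% (1.70 to 9.70) against 7.65% (6.42 to 9.025). How much free RNA or RNA of their own the neutrophil-like cells held was not tested, and thinning a deep cell also thins any free RNA in its barcode.

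The H2-DM genes lay on the other side. H2-DMb1 was seen in 14.4% of thinned chondrocyte-like cells of MGJ (13.1 to 15.9) against 0.394% of neutrophil-like cells, and in 9.92% (5.39 to 16.4) against 0.538% in MGJ2. H2-DMa was seen in 8.42% (7.36 to 9.59) in MGJ against 0 of 761 neutrophil-like cells, which allows a share of up to 0.394% (3 counts of 761). In MGJ2 it was seen in 3.05% (0.838 to 7.63) against 0.179%. H2-Ab1 was seen in 11.1% (9.88 to 12.4) against 2.10% in MGJ. In MGJ2 its share of 11.5% (6.55 to 18.2) overlapped the 6.99% (5.81 to 8.32) of neutrophil-like cells.

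The make-up of the members' UMIs set cartilage cells apart from the immune classes. In dendritic-cell-like cells Cd74 made up 37.4% of the members' UMIs in MGJ and 42.0% in MGJ2, and H2-DMa and H2-DMb1 were minor parts (0.596% and 1.06% in MGJ, 0.522% and 0.559% in MGJ2). Neutrophil-like cells, with a low level, kept a similar make-up with 50.6% and 38.4% Cd74. In chondrocyte-like cells of MGJ, Cd74 made up 3.86% (3.54 to 4.19), H2-Aa 2.48% and H2-Eb1 2.12%, while H2-Ab1 made up 37.2% (36.4 to 38.0), H2-DMb1 34.9% and H2-DMa 19.1%. In MGJ2, Cd74 made up 20.6% (18.0 to 23.4), H2-Aa 7.41%, H2-Eb1 4.47%, H2-Ab1 33.6%, H2-DMb1 21.6% and H2-DMa 12.3% of 918 UMIs. A single cell gave 72 of the 189 Cd74 UMIs, and the Cd74 share was 10.1% with doublet calls kept and 9.66% with a lower doublet score limit. Fibroblast-like cells of MGJ lay between, with 32.0% Cd74, 29.7% H2-Ab1 and 10.1% H2-DMb1.

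**Figure D2:**
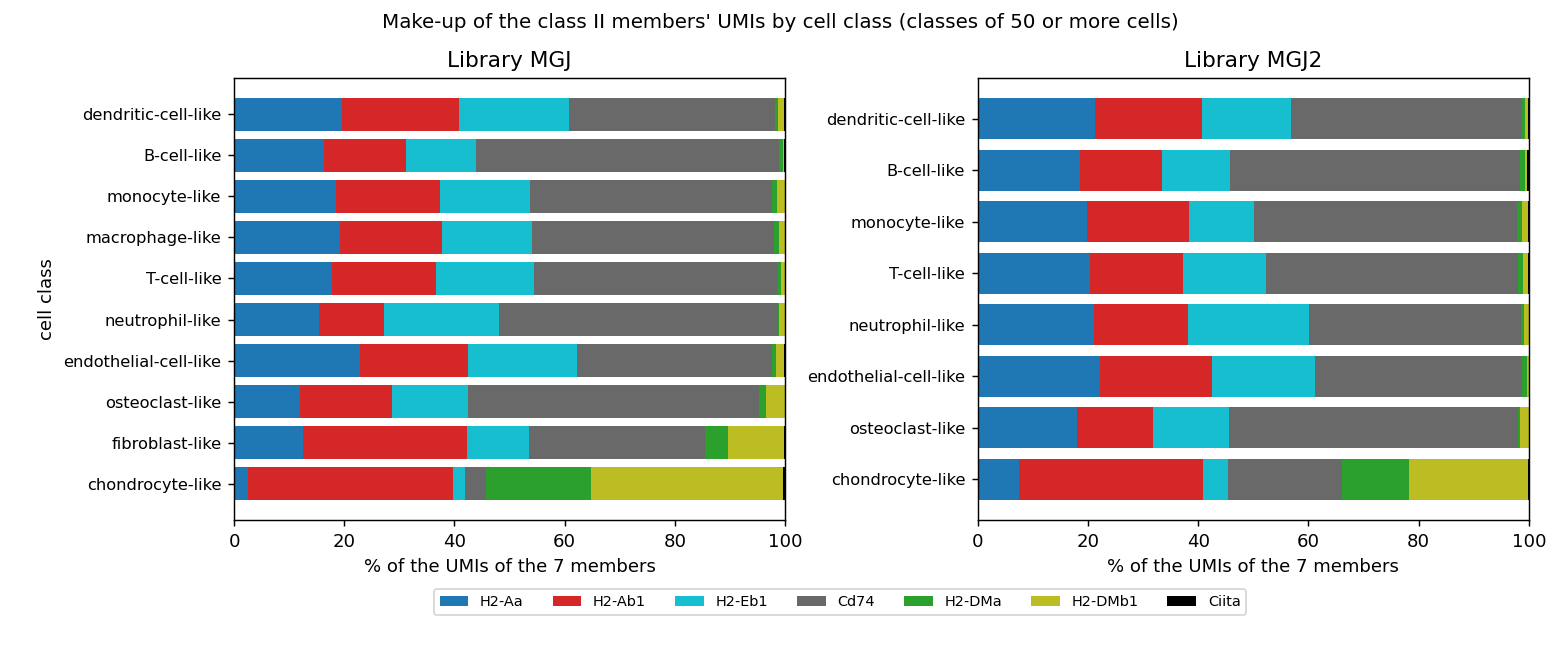
Share of each member among the UMIs of all 7 members (x axis, %), for selected classes of at least 50 cells (y axis) in libraries MGJ (left) and MGJ2 (right). Cd74 (grey) fills 37.4% and 42.0% of the dendritic-cell-like bar but 3.86% and 20.6% of the chondrocyte-like bar, where H2-Ab1 (red), H2-DMa (green) and H2-DMb1 (olive) take most of the length.

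Against all other cells of the same library, chondrocyte-like cells were low in the classical chain genes H2-Aa and H2-Eb1 and in Cd74. The H2-DM genes were higher than in other cells in MGJ and lay closer to other cells than the classical members in MGJ2. In MGJ, Cd74 was 10.1 CPM against 1156, a ratio of 0.00873 (0.008004 to 0.009505). H2-Aa was 6.49 against 501 (ratio 0.0130) and H2-Eb1 5.55 against 449 (0.0123). With the set-aside sub-clusters kept these 3 ratios were 0.0252, 0.0276 and 0.0258, and by highest marker score they were 0.0171, 0.0222 and 0.0192. H2-Ab1, the partner chain of H2-Aa, was 97.5 against 510, a ratio of 0.191 (0.186 to 0.197). H2-DMa was 50.2 against 28.4, a ratio of 1.76 (1.67 to 1.87), and H2-DMb1 was 91.3 against 36.9, a ratio of 2.48 (2.36 to 2.60). Ciita was 0.774 against 1.61, a ratio of 0.479 (0.327 to 0.689).

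In MGJ2, Cd74, H2-Aa and H2-Eb1 again had the lowest ratios of the members, but the ratios of the H2-DM genes lay below 1, unlike in MGJ. Cd74 was 47.9 against 3535 (ratio 0.0135), H2-Aa 17.2 against 1551 (0.0111) and H2-Eb1 10.4 against 1062 (0.00978). H2-Ab1 was 78.0 against 1421, a ratio of 0.0549 (0.0489 to 0.0614). H2-DMa was 28.6 against 63.1, a ratio of 0.453 (0.373 to 0.547). It was 0.878 with doublet calls kept, 0.939 at the lower doublet score limit and 0.779 with each cell named by its highest marker score. Under the same doublet settings the ratios of H2-Ab1 were 0.0273 and 0.0283, those of Cd74 0.00641 and 0.00643, and those of H2-Eb1 0.00602 and 0.00634. With cells weighted equally, H2-Aa was 0.0186 and H2-Eb1 0.0158, and by highest score H2-Aa was 0.0177. H2-DMb1 was 50.1 against 63.9, a ratio of 0.785 (0.677 to 0.906), but this ratio rose above 1 with doublet calls kept (1.36), at the lower doublet score limit (1.43) and by highest marker score (1.22). The other cells of MGJ2 hold a larger share of dendritic-cell-like and B-cell-like cells (4.02% and 7.52% of all cells against 0.558% and 0.565% in MGJ). The chondrocyte-like cells also differed, with Col10a1 at 19720 CPM in MGJ2 against 6697 in MGJ, and Col10a1-high cells were low in the H2-DM genes (below). The part of either difference in the ratios was not tested.

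In MGJ, 4 of 7 members were at least 4-fold lower in chondrocyte-like cells and none was 4-fold higher, where 14.3% of 14636 genes were 4-fold lower and 5.42% 4-fold higher. In MGJ2, 5 of 7 members were at least 4-fold lower, where 19.3% of 13075 genes were. The median ratio of the members was 0.191 and 0.0252, beside 0.862 and 0.781 over all genes. The 4 further class II chain genes split in the same manner. H2-Oa and H2-Ob, the chains of the H2-DM inhibitor, and H2-Eb2 gave 1 to 6 UMIs each, or none, in chondrocyte-like cells. Their ratios ran from 0.0194 to 0.0354 in MGJ and from 0 to 0.0832 in MGJ2, all past 4-fold. H2-DMb2 was 9.001 CPM against 1.82 in MGJ, a ratio of 4.94 (4.06 to 6.03), and 6.08 against 13.6 in MGJ2, a ratio of 0.448 (0.285 to 0.672).

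The factors that read class II promoters were detected in chondrocyte-like cells. None of the 7 (Rfx5, Rfxap, Rfxank, Nfya, Nfyb, Nfyc, Creb1) was 4-fold lower in MGJ, with a median ratio of 0.9504, and 1 (Creb1, 0.191) was in MGJ2. Over all genes 14.3% in MGJ and 19.3% in MGJ2 were at least 4-fold lower, so the counts of these factors were not far from that share. The same shares apply to the counts of the lists that follow. Rfx5, a DNA-binding subunit of RFX, was 2.49 against 2.56 CPM in MGJ and 2.03 against 5.39 in MGJ2. Of 7 genes for antigen processing, 5 were at least 4-fold lower in MGJ and 3 in MGJ2. Ctss, the protease that trims Cd74 in dendritic and B cells, was among them with 7.53 against 769 in MGJ and 2.53 against 480 in MGJ2. Sppl2a, the intramembrane protease that clears the remaining Cd74 stub, was not (80.9 against 83.6, and 94.0 against 112).

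Of the costimulation genes, 3 of 4 were at least 4-fold lower in MGJ and 4 of 4 in MGJ2. Cd86, a ligand of CD28, was 0.604 against 44.5 and 1.52 against 111 CPM. Class I presentation genes were also lower in chondrocyte-like cells, by at least 4-fold for 6 of 7 in MGJ and 5 of 7 in MGJ2. B2m, the light chain of class I, was 164 against 1415 and 224 against 2173. In MGJ its ratio of 0.116 lay below that of H2-Ab1. All 12 myeloid, 10 lymphoid and erythroid and 10 leukocyte surface reference genes were at least 4-fold lower in both libraries. Of the interferon gamma response genes, 2 of 8 tested were 4-fold lower in MGJ and 6 of 9 in MGJ2. Ifng itself gave 13 UMIs outside chondrocyte-like cells in MGJ and 105 in MGJ2.

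Free RNA from broken cells and cells captured together can bring leukocyte RNA into a barcode of a cartilage cell. Genes of 1 source should then keep the same proportion, so the members were set beside leukocyte genes in Col2a1-high cells, those with at least 2% of their UMIs from Col2a1, a cartilage collagen gene. These were 2584 cells in MGJ (2235 chondrocyte-like, 250 set aside for leukocyte markers, 82 fibroblast-like) and 95 cells in MGJ2 (87 chondrocyte-like, 7 set aside). Just outside the limit, 256 and 30 cells had 1% to 2% of Col2a1, and just inside it 234 and 16 cells had 2% to 3%.

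In MGJ, Cd74 in Col2a1-high cells was at 2.61% of its level in all other cells (2.49 to 2.74). H2-Aa was at 2.92% and H2-Eb1 at 2.85%. These values lay within those of the 12 myeloid reference genes, which ran from 1.80% (Camp and C1qc) to 3.68% (S100a8) with a median of 2.31%. The 10 leukocyte surface genes ran from 3.12% to 15.3% with a median of 3.61%. H2-Ab1 stood at 21.4% (20.8 to 22.0), above every myeloid gene and above the 10 lymphoid and erythroid genes (2.04% to 11.6%, median 8.11%). H2-DMa stood at 197% (186 to 209), H2-DMb1 at 261% (249 to 274) and H2-DMb2 at 568% (467 to 697). H2-Oa, H2-Ob and H2-Eb2 were at 6.66% to 8.11%, on 4 to 9 UMIs each. Class I genes ran from 6.12% to 30.9%, a range that held H2-Ab1.

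In MGJ2, Cd74 was at 1.15% (0.953 to 1.37), H2-Aa at 1.13% and H2-Eb1 at 1.01%, where myeloid genes ran from 0% (C1qa and C1qc) to 9.04% (Camp) with a median of 3.77% and lymphoid and erythroid genes from 0% to 4.03%. The leukocyte surface genes ran from 1.49% to 8.64%. The values of 0% came from genes with 0 UMIs in these cells. Cd74, H2-Aa and H2-Eb1 lay below every reference gene with a UMI. The lowest of those were Hba-a1 at 1.33% (1 UMI) and Igkc at 1.365% (1.07 to 1.72), whose interval overlapped that of Cd74. H2-Ab1 was at 6.25% (5.52 to 7.06), above the lymphoid and erythroid genes but below Camp at 9.04% and beside Lyz2 at 6.10%. H2-DMa was at 63.8% (52.7 to 76.5), H2-DMb1 at 99.6% (85.7 to 115) and H2-DMb2 at 54.3% (33.8 to 82.9), above every reference gene. Ciita rested on 49 UMIs in MGJ (56.8% of the level in other cells) and on 1 UMI in MGJ2.

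**Figure D3:**
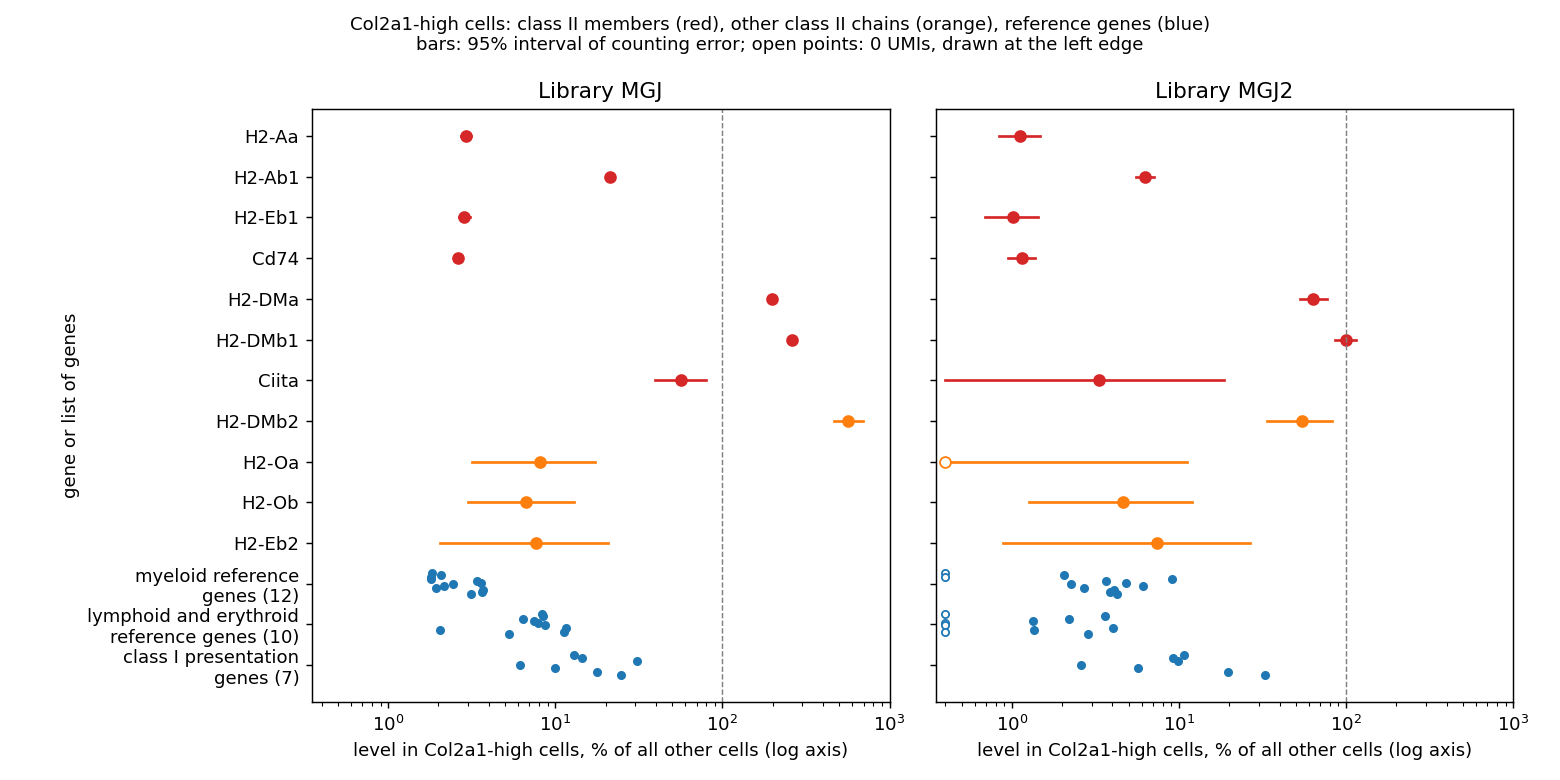
Level of each gene in Col2a1-high cells as a percentage of its level in all other cells of the library (x axis, log scale, dashed line at 100%), for the 7 members (red), 4 further class II chain genes (orange) and the reference genes of 3 lists (blue, 1 point a gene). Bars are 95% intervals of counting error and open points are genes at 0. In MGJ, Cd74, H2-Aa and H2-Eb1 sit within the span of the reference points. In MGJ2 they sit to the left of every reference point with a UMI, and only reference genes at 0 lie further left. In both panels H2-DMa and H2-DMb1 sit to the right of all reference points.

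The UMIs were also spread differently over the Col2a1-high cells. In MGJ, the 10 richest of 2584 cells held 48.5% of all Cd74 UMIs, 50% of H2-Aa and 49.5% of H2-Eb1, and the highest cells had 182, 132 and 135 UMIs of them. The 10 richest cells held 4.62% of H2-DMb1, 6.09% of H2-DMa and 10.3% of H2-Ab1 UMIs. H2-DMb1 was found in 1510 cells (58.4%), and 63.0% of its UMIs lay in cells with no UMI of Cd74, H2-Aa or H2-Eb1. For H2-DMa this share was 63.3% and for H2-Ab1 62.7%. Of all 2584 cells, 1807 had no UMI of Cd74, H2-Aa or H2-Eb1, so these shares were no higher than the share of such cells. In MGJ2, with 95 cells, the 10 richest held 57.1% to 75.2% of the UMIs of each member other than Ciita, and the shares without Cd74, H2-Aa or H2-Eb1 were 22.5% (H2-DMb1), 19.2% (H2-DMa) and 10.9% (H2-Ab1). Within MGJ, the H2-DM genes were thus less concentrated in the richest cells than Cd74, H2-Aa and H2-Eb1. Within MGJ2, H2-DMb1 had the lowest share (57.1%), but H2-DMa (65.8%) lay above H2-Aa (63.5%) and H2-Eb1 (65.6%). The 10 richest cells are a much larger part of 95 cells than of 2584. These shares therefore cannot show whether the spread differed between the libraries.

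Leaving out every Col2a1-high cell with a UMI of the leukocyte surface list kept 622 cells in MGJ and 14 in MGJ2. The cells kept were shallower, with medians of 16990 and 15020 UMIs against 21832 and 32217 in all Col2a1-high cells. Arhgdib gave the most UMIs of that list in Col2a1-high cells of MGJ (3277). In MGJ, H2-Ab1 UMIs per cell hardly rose with depth (below), and the part of depth in the levels that follow was not tested. In the cells kept, H2-Ab1 was 159 CPM (151 to 167) in MGJ and 171 (123 to 230) in MGJ2, H2-DMb1 106 and 27.8, and H2-DMa 60.0 and 27.8. Cd74 was 5.32 (3.99 to 6.94) and 11.9 (2.46 to 34.8), and H2-Aa 4.14 and 7.94. In these cells the H2-Ab1, H2-DMa and H2-DMb1 of MGJ were thus at or above their level in all Col2a1-high cells (106, 53.1 and 93.7), and Cd74 was below it (29.3). In the 14 cells of MGJ2, H2-DMb1 and H2-DMa were below their levels in all Col2a1-high cells (62.7 and 39.4), H2-Ab1 was above its level (87.0) and Cd74 below (39.7), on 7, 7, 43 and 3 UMIs.

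Across the cells of MGJ (n = 2584), the per-cell proportions of H2-Aa and H2-Eb1 had a Pearson correlation of 0.93, and H2-Aa and Cd74 one of 0.86. Spearman's rho was 0.16 and 0.14, so these values rest on the few rich cells. H2-DMa and H2-DMb1 had a Pearson correlation of 0.45 and a rho of 0.44, but their correlations with Cd74 were 0.035 and 0.021. H2-Ab1 and Cd74 had 0.23 and a rho of 0.078. In MGJ2 (n = 95) the correlation was 0.81 for H2-Aa with Cd74, 0.38 for H2-DMa with H2-DMb1 (rho 0.47) and 0.086 for H2-Ab1 with Cd74. There H2-DMb1 with Cd74 had 0.49 (rho 0.11), more than H2-DMa with H2-DMb1, H2-DMa with Cd74 had -0.075, and H2-Aa with H2-Eb1 had only 0.12. The genes of a pair share a cell's depth and library, and these are descriptions.

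The Col2a1-high cells were also split into 3 bins of near-equal size by total UMIs. In MGJ, the deepest bin had a median of 30430 UMIs against 13180 in the shallowest, 2.31 times as many. Cd74 UMIs per cell were 4.23 times as many (0.246, 0.640 and 1.04 over the bins) and H2-DMb1 3.71 times (0.870, 2.06 and 3.23), beside 2.89 times for Col2a1 and 3.73 times for Tyrobp, a myeloid adaptor gene. H2-Ab1 was the exception with 2.10, 2.62 and 2.23 UMIs per cell, 1.06 times. In MGJ2 the first bin held 32 cells, and H2-Ab1 went from 0.531 to 4.71 UMIs per cell.

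Within cartilage, H2-Ab1 was concentrated in 1 sub-cluster. In MGJ, sub-cluster 5 (181 cells), led by Espn, Cdsn, Chrdl2, Nrn1, H2-Q7 and the hypoxia-responsive carbonic anhydrase gene Car9, held 880 CPM of H2-Ab1 (848 to 913). The chain was found in 171 of its cells (94.5%), with a median of 13 and a highest value of 73 UMIs in a cell. The same cells held 4.97 of H2-Aa, 5.90 of H2-Eb1 and 5.90 of Cd74, and no cell had more than 2 UMIs of Cd74. H2-DMa (125) and H2-DMb1 (171) were also highest there. These 181 cells gave 2834 of the 5169 H2-Ab1 UMIs of the class, and without them the ratio to other cells went from 0.191 to 0.0920. MGJ2 had 1 cell of this sub-cluster, with 3 UMIs of H2-Ab1, and the level could not be checked there.

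In the other sub-clusters of MGJ that were not set aside, H2-Ab1 ran from 17.4 (15.5 to 19.6) in the 795 cells led by Penk and Tfpi2 to 92.3 (86.2 to 98.7) in the 464 cells led by Pank1, Ffar4 and Col10a1, the collagen gene of hypertrophic cartilage. The H2-DM genes ran the other way in the Col10a1-high cells. H2-DMa was 12.5 (10.4 to 15.03) and H2-DMb1 50.9 (46.4 to 55.7) there, their lowest levels in MGJ, beside 52.5 and 76.8 in the Penk-led cells. The H2-DMb1 interval overlapped those of the cycling cells led by Ube2c (57.3) and of the cells led by Saa1 (61.8). In MGJ2, the Col10a1-high sub-cluster (69 cells) held 89.9 of H2-Ab1, 5.75 (2.87 to 10.3) of H2-DMa and 18.8 of H2-DMb1, beside 64.6 of H2-DMa and 94.9 of H2-DMb1 in 25 cells led by Ppa1 and Slurp1. Low H2-DMa in Col10a1-high cells was thus measured in both libraries. Cd74 was 79.5 in the Col10a1-high cells of MGJ2, where 1 cell gave 72 of its 152 UMIs.

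Brd2, which overlaps H2-DMa on the opposite strand, was 134 CPM in chondrocyte-like cells against 214 elsewhere in MGJ and 132 against 202 in MGJ2. Its ratios were 0.625 and 0.653, beside 1.76 and 0.453 for H2-DMa. Whether reads of Brd2 or of CR974462.3 were counted for H2-DMa was not tested. Sub-cluster 7 of MGJ (51 cells), set aside because C1qa, Ms4a6c, Ctss and Lyz2 led it, held all classical members: 302 of H2-Aa, 334 of H2-Ab1, 239 of H2-Eb1 and 740 of Cd74. It was the only sub-cluster of at least 20 cells in MGJ with Cd74 above 17 CPM.

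**Figure D4:**
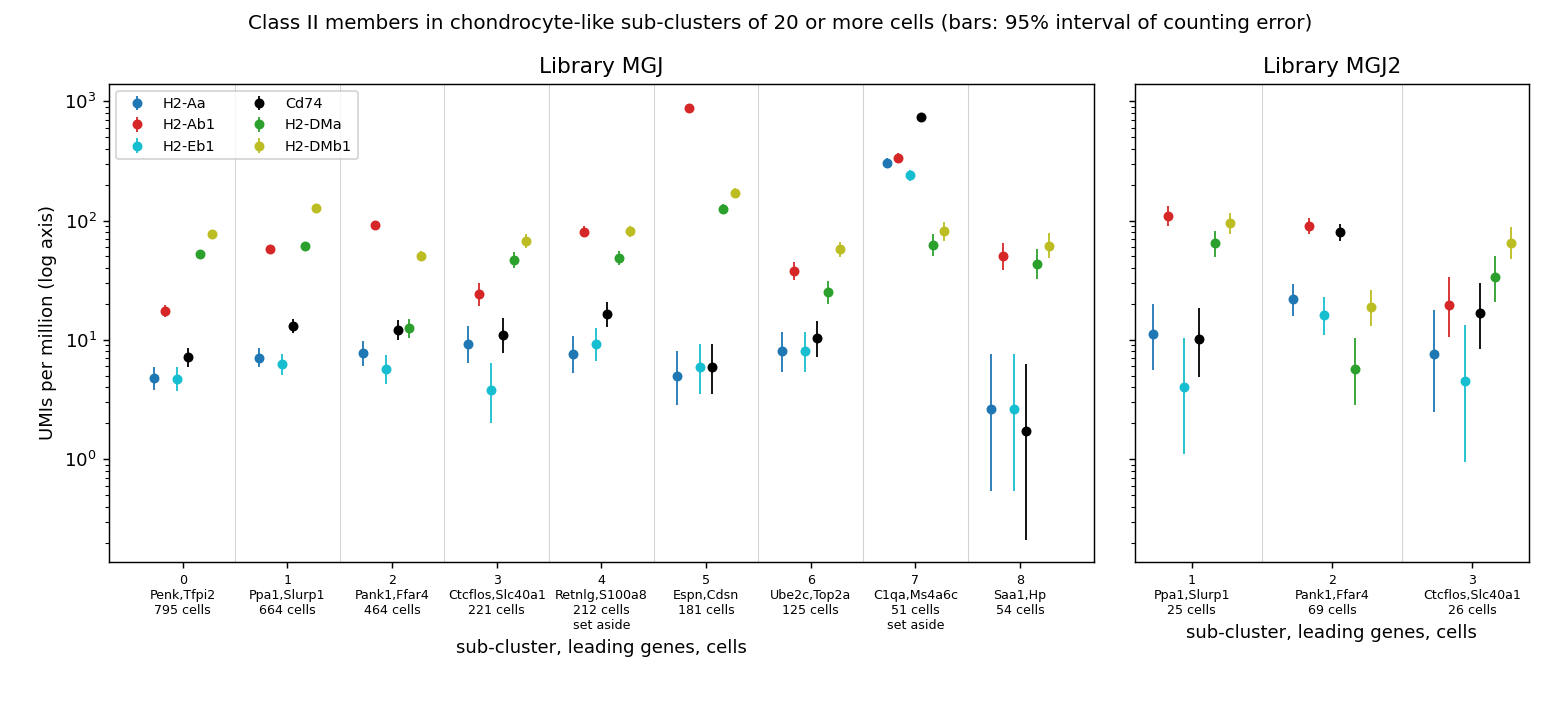
Levels of 6 members in CPM (y axis, log scale) in each chondrocyte-like sub-cluster of at least 20 cells (x axis, with its leading genes), for libraries MGJ (left) and MGJ2 (right). Points are levels and bars 95% intervals of counting error; H2-Ab1 stands at 880 in sub-cluster 5 of MGJ with Cd74 at 5.90, and only the set-aside sub-cluster 7 has Cd74 above the other members.

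Over the 16 classes of MGJ and the 13 of MGJ2, the genes whose level followed the summed members most closely were Cd83 (Pearson r on log2 of CPM plus 10, 0.92 and 0.94), Cd86 (0.91 and 0.94), Cd40 (0.86 and 0.90), Irf5 (0.84 and 0.85) and Etv3 (0.83 and 0.86). The first 3 encode surface proteins of activated dendritic and B cells. Among the members themselves H2-DMb1 followed the sum least in MGJ (0.75, beside 0.99 for H2-Ab1), with Ciita left out there for too few UMIs. The sum contains each member, so an abundant member such as H2-Ab1 follows it partly by construction.

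Within chondrocyte-like cells (2504 and 132), the genes most like H2-Ab1 per cell, chosen after their values were seen, were Bnip3 (r 0.58 in MGJ and 0.40 in MGJ2), Ero1l (0.53 and 0.40), Higd1a (0.41 and 0.39), the glycolysis genes Pkm (0.42 and 0.39) and Aldoa (0.41 and 0.37). Bnip3 and Higd1a are known as hypoxia-induced mitochondrial genes. Bnip3 was 644 CPM in sub-cluster 5 of MGJ and between 60.1 and 233 in the other sub-clusters there. H2-DMa was most like its partner H2-DMb1 (0.48 and 0.49), and then Plod2 (0.31 and 0.35) and Papss2 (0.31 and 0.45), which act on collagen and on sulfate for proteoglycans.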

How the data were processed

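Calluses were digested, captured with the 10x Chromium 3′ kit (version 3) and sequenced per the labels. The deposited files hold filtered UMI counts per gene and barcode that were not normalized. Their headers name Cell Ranger 4.0.0, and the submitters' processing notes name GRCm38 and Seurat. Free RNA is not removed from such counts and can raise low levels. Barcodes with under 200 genes or over 20% mitochondrial UMIs were removed. Scrublet's automatic threshold marked 0 barcodes in MGJ and 223 in MGJ2. Scores above 0.4 were therefore removed in both libraries (192 and 117 barcodes), a choice made after the data were seen. This removed 1.43% and 1.50% of the barcodes that passed the other filters, where the assumed doublet rate was 10.8% and 6.24%. Doublets may therefore remain among the kept cells.

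Both libraries were clustered together with scanpy 1.11.5 (2000 variable genes, 30 components, 15 neighbours, leidenalg 0.10.2, resolution 1, sub-clusters 0.5) without class II genes, and clusters were named from 24 marker lists. Chondrocyte-like sub-clusters led by leukocyte markers were set aside. With 1 library per sample no test was made. Intervals are exact 95% Poisson, conditional binomial or Clopper-Pearson. Scripts were tested on simulated data. Genes of at least 50 UMIs entered ratio counts, where 4-fold is called. The members, all genes of the lists and the 5 most alike genes were named. The members and lists were chosen with earlier results of these data known. Python 3.11.15, numpy 2.4.6, scipy 1.17.1, pandas 2.3.3 and matplotlib 3.10.9 were used.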

Additional observations from a re-analysis of the deposited data

Results flagged for a closer look

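Class II UMIs were also found in barcodes that entered no comparison. Removed barcodes held 1483 CPM of the summed members in MGJ (1027 barcodes) and 6538 in MGJ2 (320 barcodes), above the 0.657 and 1.69 that a count of 0 allows. Both levels lay below the 1609 and 7170 CPM of the kept cells. Most of the UMIs in removed barcodes came from those removed by doublet score, at 2094 and 8194 CPM. Barcodes removed for few genes or mitochondrial UMIs held 160 and 1022. Cells set aside from the chondrocyte-like class held 618 CPM in MGJ (274 cells) and 318 in MGJ2 (10 cells), against 262 and 232 in the chondrocyte-like cells that were kept.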

How the results depend on the processing

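No paired analysis was possible because each library is 1 sample without a group, and for the same reason no replicate was left out. Depth limits Ciita, H2-Oa, H2-Ob and H2-Eb2 in chondrocyte-like cells, and only 132 such cells came from MGJ2.

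The summed members in chondrocyte-like cells over other cells were 0.0976 in MGJ and 0.116 with doublet calls kept, 0.09997 at resolution 2, 0.113 with scores above 0.25 removed, 0.141 with each cell named by its highest marker score, 0.0957 with cells weighted equally and 0.111 with set-aside sub-clusters kept. In MGJ2 they were 0.0302, 0.0370 by highest score and 0.0342 with equal weights. In Col2a1-high cells the percentage of other cells was 11.9 in MGJ and 11.3 at a limit of 1%, 14.4 at 5%, 12.8 with doublet calls kept, 13.02 without leukocyte surface UMIs, 11.5 with equal weights and 10.9 at the lower doublet score. In MGJ2 it was 3.40, 3.08 at 1% and 3.95 with equal weights. Dendritic-cell-like cells kept place 1 except by highest score in MGJ (place 2). Chondrocyte-like cells, at place 13, moved to 11 with doublet calls kept, 12 at resolution 2 and 18 by highest score in MGJ, and to 12 with doublet calls kept, 15 at resolution 0.5, 12 at resolution 2 and 22 by highest score in MGJ2, where more classes were counted. The share of chondrocyte-like cells with a member UMI was 18.6% and 12.9% when thinned to 1000 UMIs, and 38.2% in MGJ2 at the lower doublet score. Cd74's share of the members was 8.44% and 31.2% among the classical chain genes and Cd74 alone, and in MGJ2 10.1% with doublet calls kept and 9.66% at the lower score.

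The H2-DMb1 ratio in MGJ2 turned from 0.785 to 1.36 with doublet calls kept, 1.43 at the lower doublet score and 1.22 by highest score. With doublet calls kept, the Col10a1-high cluster was led by osteoblast markers and left unnamed. The H2-DMa ratio ranged from 1.74 to 2.23 in MGJ and from 0.384 to 0.939 in MGJ2, the H2-Ab1 ratio from 0.0920 to 0.226 and from 0.0273 to 0.0594, and the Cd74 ratio from 0.00825 to 0.0252 and from 0.00641 to 0.0166. Of 98 values of single members under alternatives, 55 stayed within their counting interval. The lower doublet score and the ratio without sub-cluster 5 were chosen after seeing the data, and the cause of each shift was not tested.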
